A study of Mus musculus with 2 samples.

Results

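The 10 genes described here are used to recognise brain pericytes and include both subunits of the vascular ATP-sensitive potassium (KATP) channel: Kcnj8, Abcc9, Rgs5, Rgs4, Higd1b, Vtn, Atp13a5, Art3, Cspg4 and Anpep. They were taken by gene symbol from the 25827 genes of both count matrices, and all 10 had UMIs (unique molecular identifiers, each standing for 1 captured transcript) in the cells kept. The study sorted, from whole brain of adult mice, mural cells together with fibroblasts (CD13+ or CD140a+O4-), endothelium (CD31+), astrocytes (ACSA-2+), microglia and the macrophages of brain borders (BAMs), and profiled them as single cells with 10x Genomics 3′ chemistry. One library came from IL34LacZ/+ mice and one from IL34LacZ/LacZ mice, so both carry the LacZ allele of Il34, on 1 chromosome or on both, and there is no library without it. How many animals went into each library is not stated in the labels. With 1 library per genotype, no test between genotypes was possible, and every interval below is a 95% interval for counting error only.

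Pericytes are the mural cells that wrap brain capillaries and share their basement membrane, while smooth muscle cells surround arterioles and venules. A KATP channel joins a pore of Kir6 subunits (Kir6.1 is the product of Kcnj8) to sulfonylurea receptor subunits (SUR2 is the product of Abcc9), closes when ATP is plentiful and, when open, hyperpolarises the cell. Rgs5 and Rgs4 encode regulators that speed the return of G protein alpha subunits to their inactive state. Vtn encodes the adhesion glycoprotein vitronectin, Cspg4 the proteoglycan NG2, Anpep the aminopeptidase CD13, Atp13a5 a P5-type transport ATPase, Art3 a member of the ADP-ribosyltransferase family, and Higd1b a small protein of the hypoxia-inducible domain family. CD13 was one of the surface markers of the sort for mural cells and fibroblasts, so the presence of Anpep in those cells is not a finding.

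Kcnj8 and Abcc9 lie side by side on chromosome 6 (GRCm38), Kcnj8 at chr6:142564837-142571614 and Abcc9 at chr6:142587862-142702315, both on the minus strand and 16247 bases apart with no protein-coding gene between them in GENCODE. Rgs5 (chr1:169655501-169695813, plus strand) and Rgs4 (chr1:169741477-169747642, minus strand) are also neighbours, 45663 bases apart. Art3 overlaps Cxcl10 and Cxcl11 on the opposite strand, and no source used here states whether the authors counted by strand, so its level outside mural cells is less certain. The 250 bases before the start of 4 genes are shown, because Kcnj8 and Abcc9 encode the 2 parts of 1 channel, and Rgs5 and Vtn each had a further cluster outside mural cells with more than 1000 CPM (UMIs of the gene per 1000000 UMIs of the group of cells). They are from RefSeq (GRCm38.p6), 5′ to 3′ on the strand of the gene, with capitals marking TGGGAA, the core bound by the Notch effector RBPJ, and TAAACA, a forkhead core, on either strand. The windows are chr6:142571615-142571864 for Kcnj8, chr6:142702275-142702524 for Abcc9, chr1:169655251-169655500 for Rgs5 and chr11:78498870-78499119 for Vtn.
Kcnj8: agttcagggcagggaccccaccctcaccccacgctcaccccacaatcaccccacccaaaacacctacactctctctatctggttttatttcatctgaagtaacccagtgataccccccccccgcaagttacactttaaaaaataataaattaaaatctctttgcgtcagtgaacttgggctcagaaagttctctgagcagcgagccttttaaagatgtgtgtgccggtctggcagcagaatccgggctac
Abcc9: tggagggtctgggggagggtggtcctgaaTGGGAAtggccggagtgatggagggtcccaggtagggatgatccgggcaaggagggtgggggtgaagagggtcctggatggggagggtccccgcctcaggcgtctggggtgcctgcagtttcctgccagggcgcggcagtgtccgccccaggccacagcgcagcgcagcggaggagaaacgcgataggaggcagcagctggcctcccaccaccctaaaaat
Rgs5: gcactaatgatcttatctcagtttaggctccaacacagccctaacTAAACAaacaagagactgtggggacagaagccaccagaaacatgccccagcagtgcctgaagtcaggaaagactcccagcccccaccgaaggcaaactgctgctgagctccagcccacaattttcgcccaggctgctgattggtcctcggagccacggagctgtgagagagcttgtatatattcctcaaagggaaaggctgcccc
Vtn: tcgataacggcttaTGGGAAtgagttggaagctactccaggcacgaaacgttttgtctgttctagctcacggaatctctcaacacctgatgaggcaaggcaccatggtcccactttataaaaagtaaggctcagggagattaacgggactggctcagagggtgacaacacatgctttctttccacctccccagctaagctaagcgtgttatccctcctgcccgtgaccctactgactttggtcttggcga

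RefSeq entries were found for 9 of the 10 genes, with 11 start sites between them. TGGGAA was in the windows of Abcc9, Vtn and 1 start of Art3, which is 3 of 11 windows, and 21.6% of all 32851 mouse windows of that length hold it. TAAACA was in those of Rgs5 and Atp13a5, 2 of 11 windows, beside 3952 of all 32851. No member window held a CArG box (searched by its usual consensus), which 1.47% of all windows hold. TATAAA, the TATA box core, was in 4 of 11 windows, from Rgs4, Art3 and Vtn, beside 12.4% of all windows. It is not marked by capitals above. The Kcnj8 window held none of these motifs. Base composition differed, with 49.2% G and C before Kcnj8, 66.8% before Abcc9, 53.6% before Rgs5 and 50.4% before Vtn, and the median over all windows was 52.4%. A match describes letters and not binding.

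The IL34LacZ/+ matrix held 17168 barcodes with 87394167 UMIs and the IL34LacZ/LacZ matrix 18858 barcodes with 95505407 UMIs. Filters on depth, mitochondrial share and doublets left 8208 and 9619 cells, whose median depth was 3540.5 and 3684 UMIs. Of the barcode sequences, 103 occurred in both libraries, 26 of them among kept cells. Cells were clustered without the 10 genes and named from marker lists that hold none of them, which gave 13 classes with at least 50 cells in each library, of which 3 stayed without a name. No cluster was named for astrocytes or oligodendrocyte precursors under these settings. An astrocyte cluster of 16 and 15 cells formed at Leiden resolution 2, and also when the 10 genes were kept for clustering. Others formed at a minimum of 500 UMIs (27 and 27 cells) or 2000 UMIs (14 and 14). With up to 20% mitochondrial UMIs allowed, such a cluster held 35 and 42 cells. Mural-like cells numbered 173 and 339, at a median of 1648 and 1851 UMIs, and all 15 mural markers had UMIs in them. Il34, which the genotype alters, stood at 141 and 113 CPM (from 52 and 83 UMIs) in mural-like cells, a ratio of 0.802 (0.560 to 1.16), which does not check the genotypes, since the extent of the LacZ insertion in Il34 is not described in the labels.

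All 10 genes had their highest level in mural-like cells among the 13 classes, in both libraries. Of 579 genes with at least 100 UMIs in mural-like cells of each library, which include the members except Anpep, 28.8% were likewise highest there. Kcnj8 stood at 809 CPM (719 to 906) in the IL34LacZ/+ and 1055 CPM (982 to 1132) in the IL34LacZ/LacZ library, and Abcc9 at 1300 CPM (1186 to 1422) and 1823 CPM (1727 to 1924). A Kcnj8 UMI was found in 64.2% (56.5 to 71.3) and 73.7% (68.7 to 78.4) of mural-like cells and an Abcc9 UMI in 79.2% (72.4 to 84.98) and 85.3% (81.0 to 88.9). Both subunits of the channel were thus read in most mural-like cells of each library.

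Among other classes Kcnj8 stayed low. In microglia-like cells it had 0 UMIs in the IL34LacZ/+ library, which allows up to 1.27 CPM, and 2.48 CPM (1.13 to 4.70) in the other, where 5 of 9 UMIs came from 1 cell. Its next highest level was 31.2 CPM (19.1 to 48.2) in unnamed cluster 19 of the IL34LacZ/+ library, a cluster led by pituitary and bone genes (Prl, Pomc, Bglap), but 15 of those 20 UMIs came from 1 cell. In the IL34LacZ/LacZ library that cluster held 2 Kcnj8 UMIs, and the next highest class was neuron-like, at 11.0 CPM (7.26 to 16.0). Endothelial-like cells, the neighbours of pericytes in the vessel wall, had 8.21 CPM (5.89 to 11.1) and 6.46 CPM (4.39 to 9.17), of which 41.5% and 35.5% of the UMIs came from 1 cell, and BAM-like cells 0.360 CPM (0.0742 to 1.05) and 1.16 CPM (0.578 to 2.07). From endothelial-like cells downward, each class overlapped the next one in order by its interval in both libraries. Abcc9 followed the same course, with 48.4 CPM (32.9 to 68.7) in unnamed cluster 19 and 29.1 CPM (20.4 to 40.3) in neuron-like cells of the IL34LacZ/+ library, and 12.5 CPM (6.43 to 21.8) and 38.4 CPM (31.0 to 47.0) in the other.

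Rgs5 stood at 6692 CPM (6431 to 6962) and 8250 CPM (8043 to 8460) in mural-like cells and had a UMI in 98.3% and 99.7% of them. Vtn stood at 9270 CPM (8962 to 9586) and 11006 CPM (10767 to 11248), with a UMI in 97.7% and 99.1%. These were the members read in nearly every mural-like cell. Rgs4 stood at 1140 CPM (1033 to 1254) and 1321 CPM (1239 to 1407), Higd1b at 974 CPM (876 to 1080) and 1182 CPM (1105 to 1264), and Atp13a5 at 1704 CPM (1574 to 1843) and 1991 CPM (1890 to 2096). Art3 stood at 600 CPM (523 to 684) and 699.5 CPM (640.3 to 763), and Cspg4 at 893 CPM (799 to 995) and 968 CPM (898 to 1042). Anpep had only 45 and 112 UMIs, 122 CPM (89.1 to 163) and 153 CPM (126 to 184), and a UMI in 22.0% and 28.3% of cells, although its product was a sort marker. The per-class levels plotted for each gene show the mural-like point at the far right of every panel, with Anpep as the gene whose other classes come closest.

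**Figure D1:**
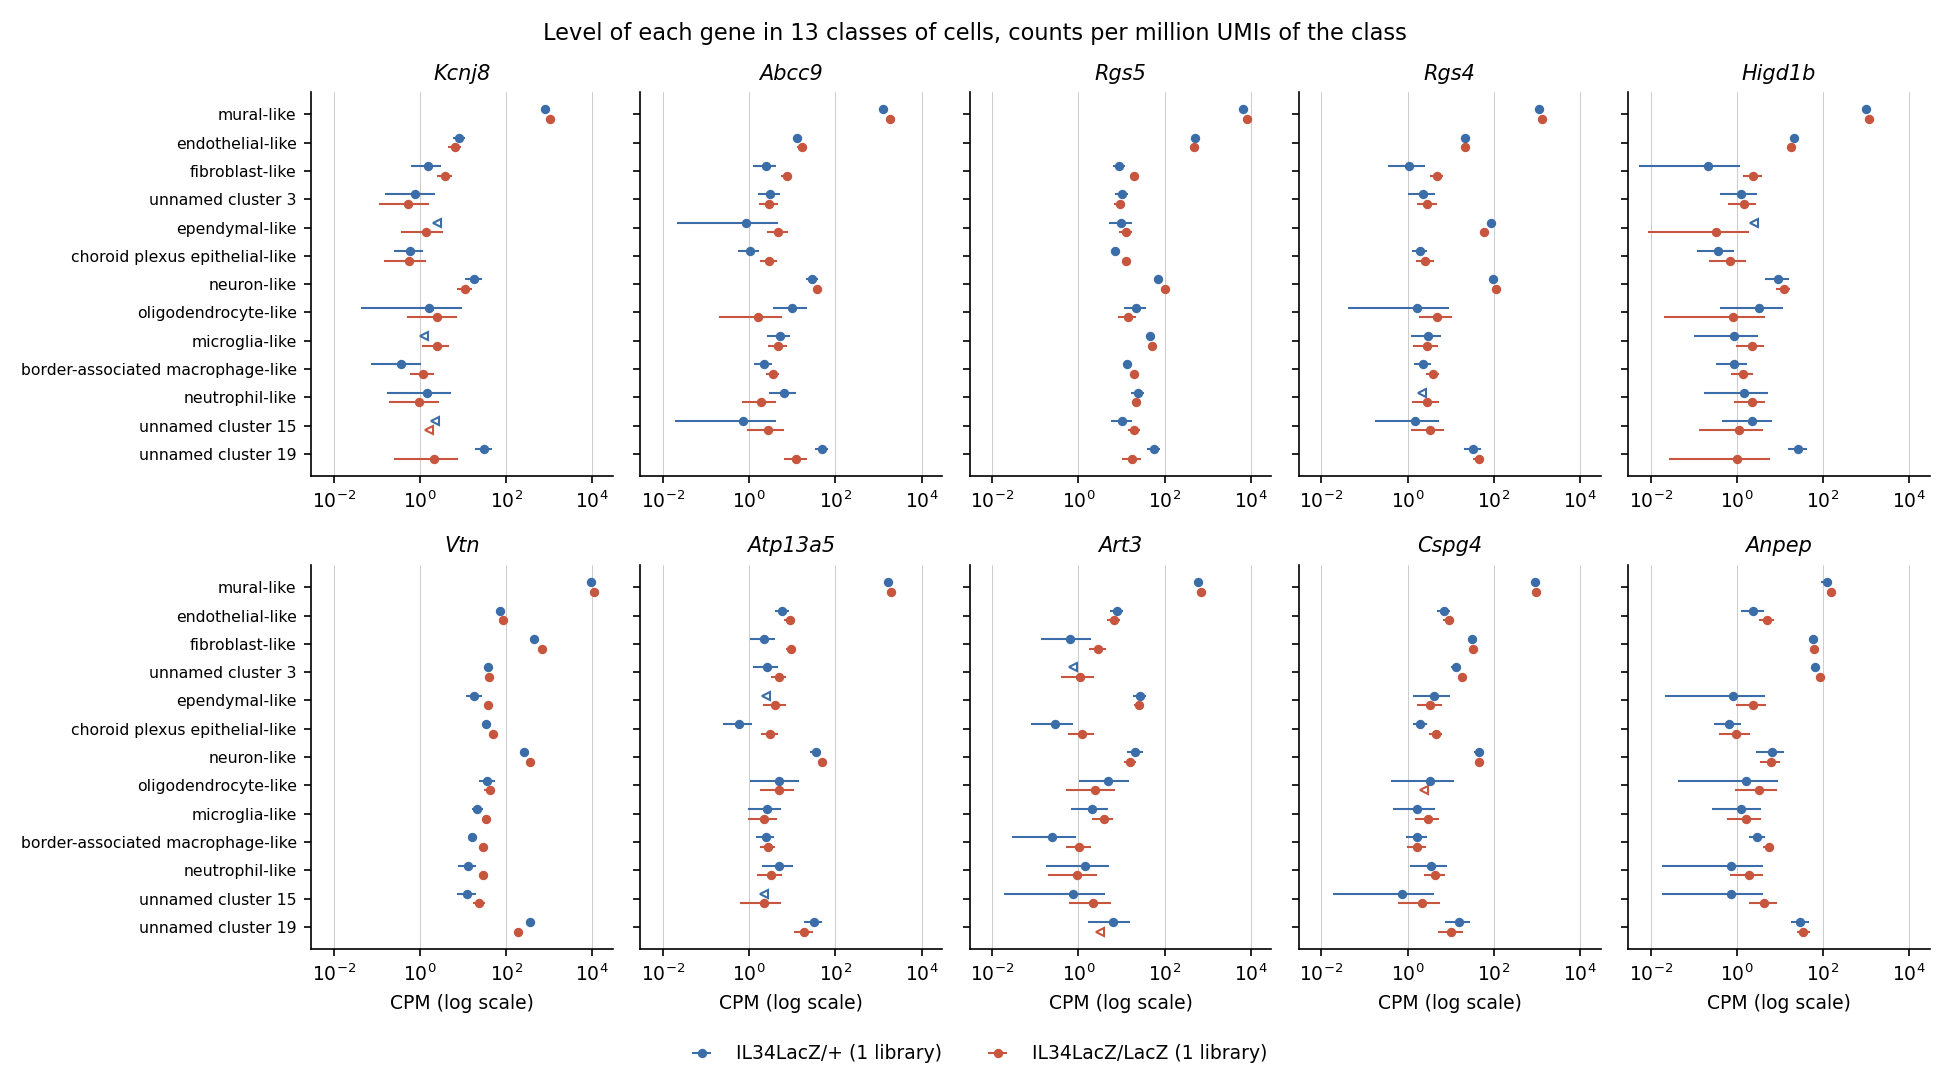
CPM (log axis) of each of the 10 genes in 13 classes of cells, 1 point per library with its exact Poisson 95% interval; open triangles mark classes with 0 UMIs, placed at the level of 3 UMIs. Mural-like cells are highest for each gene in both libraries, and Anpep in fibroblast-like cells and unnamed cluster 3 comes closest to its mural-like level.

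How far mural-like cells stood above the next class set the members apart from each other. The lower fold of both libraries was 41.0 for Atp13a5, 36.7 for Higd1b, 26.9 for Abcc9, 25.9 for Kcnj8, 22.5 for Art3, 19.7 for Cspg4, 16.3 for Vtn, 13.2 for Rgs5, 11.6 for Rgs4 and 1.78 for Anpep. Among the 579 genes ranked by this fold, Atp13a5 was at place 2, Higd1b 4, Abcc9 8, Kcnj8 10, Art3 13, Cspg4 15, Vtn 18, Rgs5 21 and Rgs4 23, while Anpep had too few UMIs to be ranked. A fold of at least 5 was found for 9 of the 10 members, beside 8.46% of the 579 genes. Genes outside the set with high folds included Notch3 (43.4), Slc38a11 (32.3), Ndufa4l2 (28.0) and P2ry14 (27.6). The classes had been named with genes that go together with these, so the folds describe the classes and test nothing.

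Single cells carried the members together. The median mural-like cell held UMIs of 8 of the 10 genes in both libraries, the lowest cell held 2 and 3 of them, and no cell held none. At least 5 members were read in 93.1% and 94.4% of mural-like cells, and in 79.2% and 88.2% after each cell was thinned to 1000 UMIs. No member was read in 90.0% and 84.1% of microglia-like cells, or in 89.1% and 80.7% of BAM-like cells. The share was lower in endothelial-like cells, at 63.3% and 60.9%, and in fibroblast-like cells, at 35.0% and 25.4%. After thinning to the same depth the microglia-like shares were 95.9% and 93.7% and the BAM-like shares 96.3% and 94.3%, at a depth where a low level is often missed. The endothelial-like shares were then 76.6% and 76.7% and the fibroblast-like shares 70.1% and 60.1%. With all UMIs, at least 5 members were read in 1.03% and 1.03% of endothelial-like cells and in 0.138% and 1.13% of fibroblast-like cells.

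Outside mural cells, Rgs5 was found mainly in endothelial-like cells, at 507 CPM and 493 CPM, and its level within them was highest in 1 cluster, which held 1245 of 2534 and 1247 of 2364 of their Rgs5 UMIs. Endothelial-like cluster 12, led by Gkn3, Ly6c1, Cldn5 and Sox18 (Gkn3 and Sox18 are known in arterial endothelium), and with mural markers as its second-best list (2.68 on the log2 scale, beside 5.49 for endothelial markers), held 1248 CPM (1179 to 1319) and 1506 CPM (1424 to 1592) of Rgs5, from 131 of 268 and 104 of 207 cells. The largest endothelial-like cluster, number 0, held 299 CPM (276 to 323) and 269 CPM (248 to 291). A single cell gave 8.92% and 17.9% of the Rgs5 UMIs of cluster 12. Its Vtn level was 118 and 130 UMIs in all, so that 10.6 (8.73 to 12.9) and 9.59 (8.002 to 11.6) Rgs5 UMIs were read per Vtn UMI, whereas mural-like cells gave 0.722 (0.685 to 0.760) and 0.750 (0.725 to 0.775). Endothelial-like cluster 12 therefore did not hold Rgs5 and Vtn in the proportion of mural-like cells. Nor did the other endothelial-like clusters. Their Rgs5 UMIs per Vtn UMI ran from 2.07 (cluster 17) to 7.47 (cluster 18) in the IL34LacZ/+ library. In the IL34LacZ/LacZ library they ran from 2.60 (cluster 17) to 8.07 (cluster 13). In BAM-like cells that proportion was 0.846 (0.654 to 1.09) and 0.691 (0.571 to 0.835), with intervals that cover the mural-like values. Kcnj8 did not follow, at 0.0221 (0.00449 to 0.0658) and 0.0404 (0.0200 to 0.0735) UMIs per Vtn UMI in BAM-like cells, below the mural-like 0.0872 and 0.0959. The other members were split there. Per Vtn UMI, Rgs4 (0.140 and 0.132) and Cspg4 (0.103 and 0.0588) had intervals that cover the mural-like values in both libraries. Atp13a5 and Art3 were below the mural-like value in 1 library each. Anpep per Vtn UMI was above it, and Higd1b per Rgs5 UMI below it, in both libraries. Smooth muscle-like cells, a subset of the mural-like cells described further on, had 0.0304 (0.0138 to 0.0585) and 0.0251 (0.0133 to 0.0434) Kcnj8 UMIs per Vtn UMI, with intervals that overlap the BAM-like ones, but 1.41 (1.21 to 1.64) and 1.33 (1.18 to 1.49) Rgs5 UMIs per Vtn UMI, above the BAM-like intervals. The part of free RNA and of doublets in these levels was not tested.

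Vtn had its next highest class level in fibroblast-like cells, again mainly in 1 cluster. It was also read in neuron-like cells (325 and 897 UMIs) and in unnamed cluster 19 (232 and 177 UMIs). Fibroblast-like cluster 9, led by Slc7a11, Apod, Dcn and Slc6a13, held 4026 CPM (3844 to 4214) and 4593 CPM (4457 to 4731) of Vtn and had a Vtn UMI in 91.7% and 95.4% of its cells. Clusters 7 and 14 of the same class held 40.1 and 113 CPM, and 34.6 and 45.9 CPM. Kcnj8, the channel pore, had only 4 and 18 UMIs in cluster 9, which is 0.00217 and 0.00414 UMIs per Vtn UMI, also below the mural-like proportion. The Vtn of cluster 9 thus came without the proportion of Kcnj8 that mural-like cells carry.

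Anpep was also read outside mural-like cells, at 64.8 CPM and 86.0 CPM in unnamed cluster 3, led by F3, Rspo3 and Igfbp6. Fibroblast markers were the best list of that cluster (2.44 on the log2 scale, beside 0.94 for astrocyte markers). It did not meet every rule for a name. In the 3 fibroblast-like clusters Anpep stood between 55.7 and 96.1 CPM. The counts do not tell through which gate of the sort a cell came. Cspg4, which is also known from oligodendrocyte precursors, was read at 39.0 and 38.1 CPM in fibroblast-like cluster 7 and at 45.3 and 44.9 CPM in neuron-like cells. Rgs4 was read in neuron-like cells at 97.9 CPM (81.2 to 117) and 111 CPM (98.6 to 126) and in ependymal-like cells at 84.0 CPM (68.4 to 102) and 59.7 CPM (51.2 to 69.2). Art3 had its next highest level in ependymal-like cells, at 26.6 CPM (18.2 to 37.6) and 25.0 CPM (19.6 to 31.3). In ependymal-like cells 4.59 and 1.54 Rgs4 UMIs were read per Vtn UMI, and 0.123 and 0.120 in mural-like cells, so Rgs4 there was not in the mural-like proportion. Neuron-like cells had 0.372 and 0.304 Rgs4 UMIs per Vtn UMI, also above the mural-like values.

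**Figure D2:**
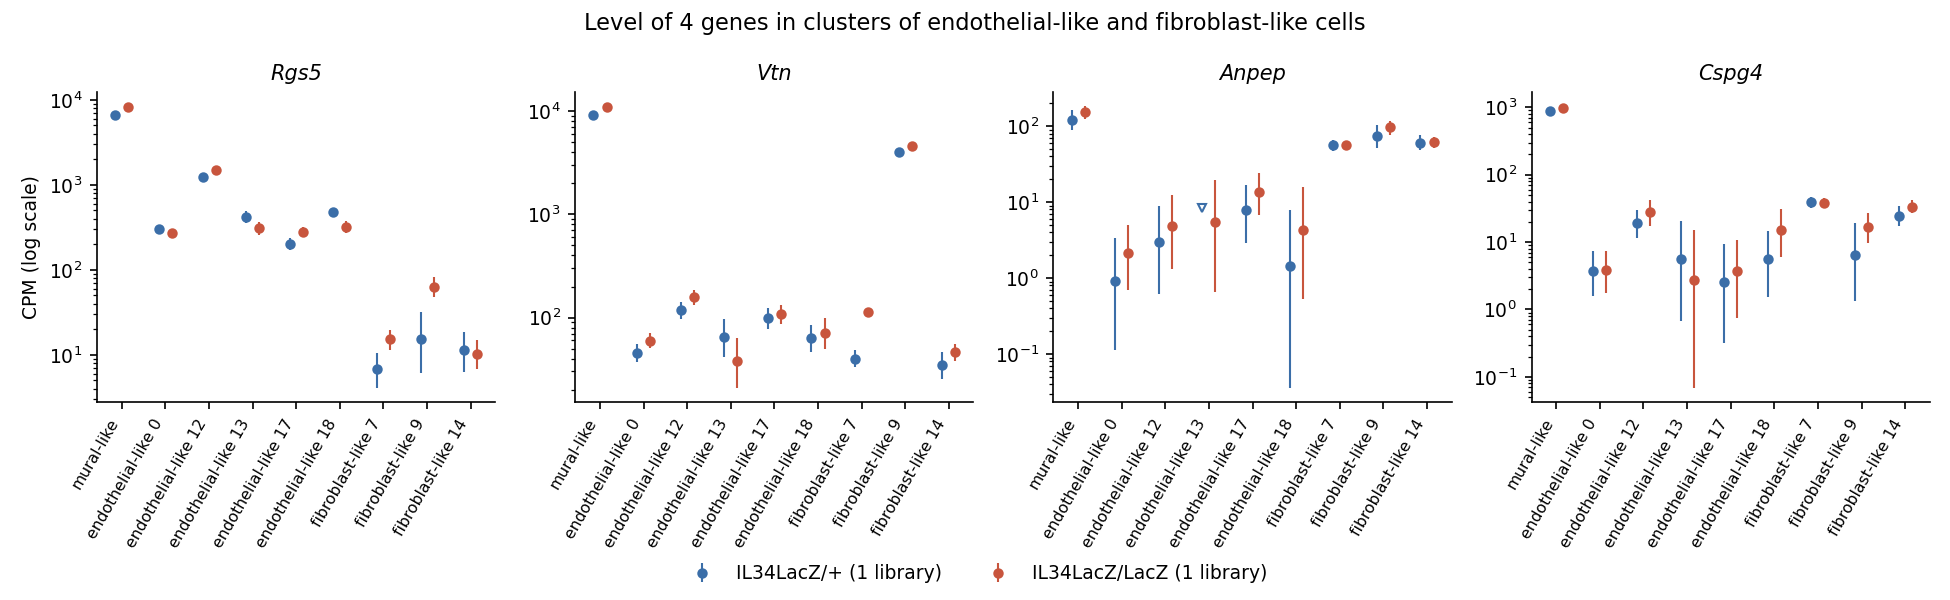
CPM (log axis) of Rgs5, Vtn, Anpep and Cspg4 in mural-like cells and in each cluster of endothelial-like and fibroblast-like cells, 1 point per library with its exact Poisson 95% interval; the open triangle marks a cluster with 0 UMIs at the level of 3 UMIs. Rgs5 stands at 1248 and 1506 CPM in endothelial-like cluster 12, Vtn at 4026 and 4593 CPM in fibroblast-like cluster 9.

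A second clustering of the mural-like cells, again without the 10 genes, gave 7 subclusters. Subclusters 0 and 1, with 118 and 257 cells together, were called pericyte-like because smooth muscle markers were low and the 9 pericyte markers outside the set were all detected, although these markers lay only 0.23 and 0.27 above the mean of mural-like cells on the log2 scale. The leading genes of subcluster 0 included Csf1r and Ctss, which are genes of macrophages. Subcluster 2, led by Acta2, Pln and Tagln, was smooth muscle-like, with 24 and 33 cells, or 13.9% (9.10 to 19.9) and 9.74% (6.80 to 13.4) of mural-like cells. Subclusters 3 and 5 were mixed, holding markers of endothelial cells (14 and 22 cells) and of choroid plexus epithelium (5 and 6 cells), and subclusters 4 and 6 stayed unnamed.

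Among the 10 genes, Kcnj8 and Abcc9 had the largest ratios between pericyte-like and smooth muscle-like cells. Over both libraries Kcnj8 stood at 1194 CPM in pericyte-like and 187 CPM in smooth muscle-like cells, a ratio of 6.37 (4.18 to 10.2), and Abcc9 at 2164 and 588 CPM, a ratio of 3.68 (2.89 to 4.76). Within the libraries the Kcnj8 ratio was 6.73 (3.49 to 14.9) in IL34LacZ/+ and 6.14 (3.57 to 11.6) in IL34LacZ/LacZ, and the Abcc9 ratio 4.34 (2.85 to 6.93) and 3.26 (2.43 to 4.48). Both genes were therefore higher in pericyte-like cells of each library, though the smooth muscle-like values rest on 9 and 13 Kcnj8 UMIs. Atp13a5 was 2.04 times (1.72 to 2.43), Vtn 1.87 times (1.74 to 2.01), Art3 1.4997 times (1.16 to 1.97), Rgs4 1.49 times (1.23 to 1.81) and Cspg4 1.30 times (1.06 to 1.61) as high in pericyte-like cells. Anpep had a ratio of 1.97 (1.07 to 4.04) from 11 smooth muscle-like UMIs.

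Rgs5 and Higd1b did not share this direction. Rgs5 stood at 8383 CPM in pericyte-like and 9386 CPM in smooth muscle-like cells, a ratio of 0.893 (0.838 to 0.953), and by library 0.971 (0.871 to 1.08) and 0.835 (0.770 to 0.906). The Higd1b ratio was 0.927 (0.782 to 1.11), from 1.24 (0.917 to 1.71) in the IL34LacZ/+ and 0.781 (0.635 to 0.968) in the IL34LacZ/LacZ library. At least 2-fold higher levels in pericyte-like cells were found for 3 of the 9 members outside the sort (Kcnj8, Abcc9 and Atp13a5), beside 5.19% of 1715 genes, and 2-fold lower levels for none, beside 3.44%. The smooth muscle-like cells were not the same in both libraries, since Acta2 (smooth muscle actin) stood at 4363 CPM in them in the IL34LacZ/+ and 1175 CPM in the IL34LacZ/LacZ library; its part in these ratios was not tested.

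Subcluster 4, with 8 and 16 cells led by Ccl19, Lipg and Ccn1, held 812 and 1209 CPM of Kcnj8 but 379 and 173 CPM of Abcc9 and 162 and 207 CPM of Atp13a5. Subcluster 6, with 4 and 5 cells, held 764 and 1957 CPM of Kcnj8, 1833 and 1631 CPM of Abcc9 and no Atp13a5 UMI. These are values of few cells, with 15 and 35 Kcnj8 UMIs in subcluster 4 and 5 and 30 in subcluster 6, and their intervals are wide, from 248 to 1782 CPM for Kcnj8 in subcluster 6 of the IL34LacZ/+ library.

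**Figure D3:**
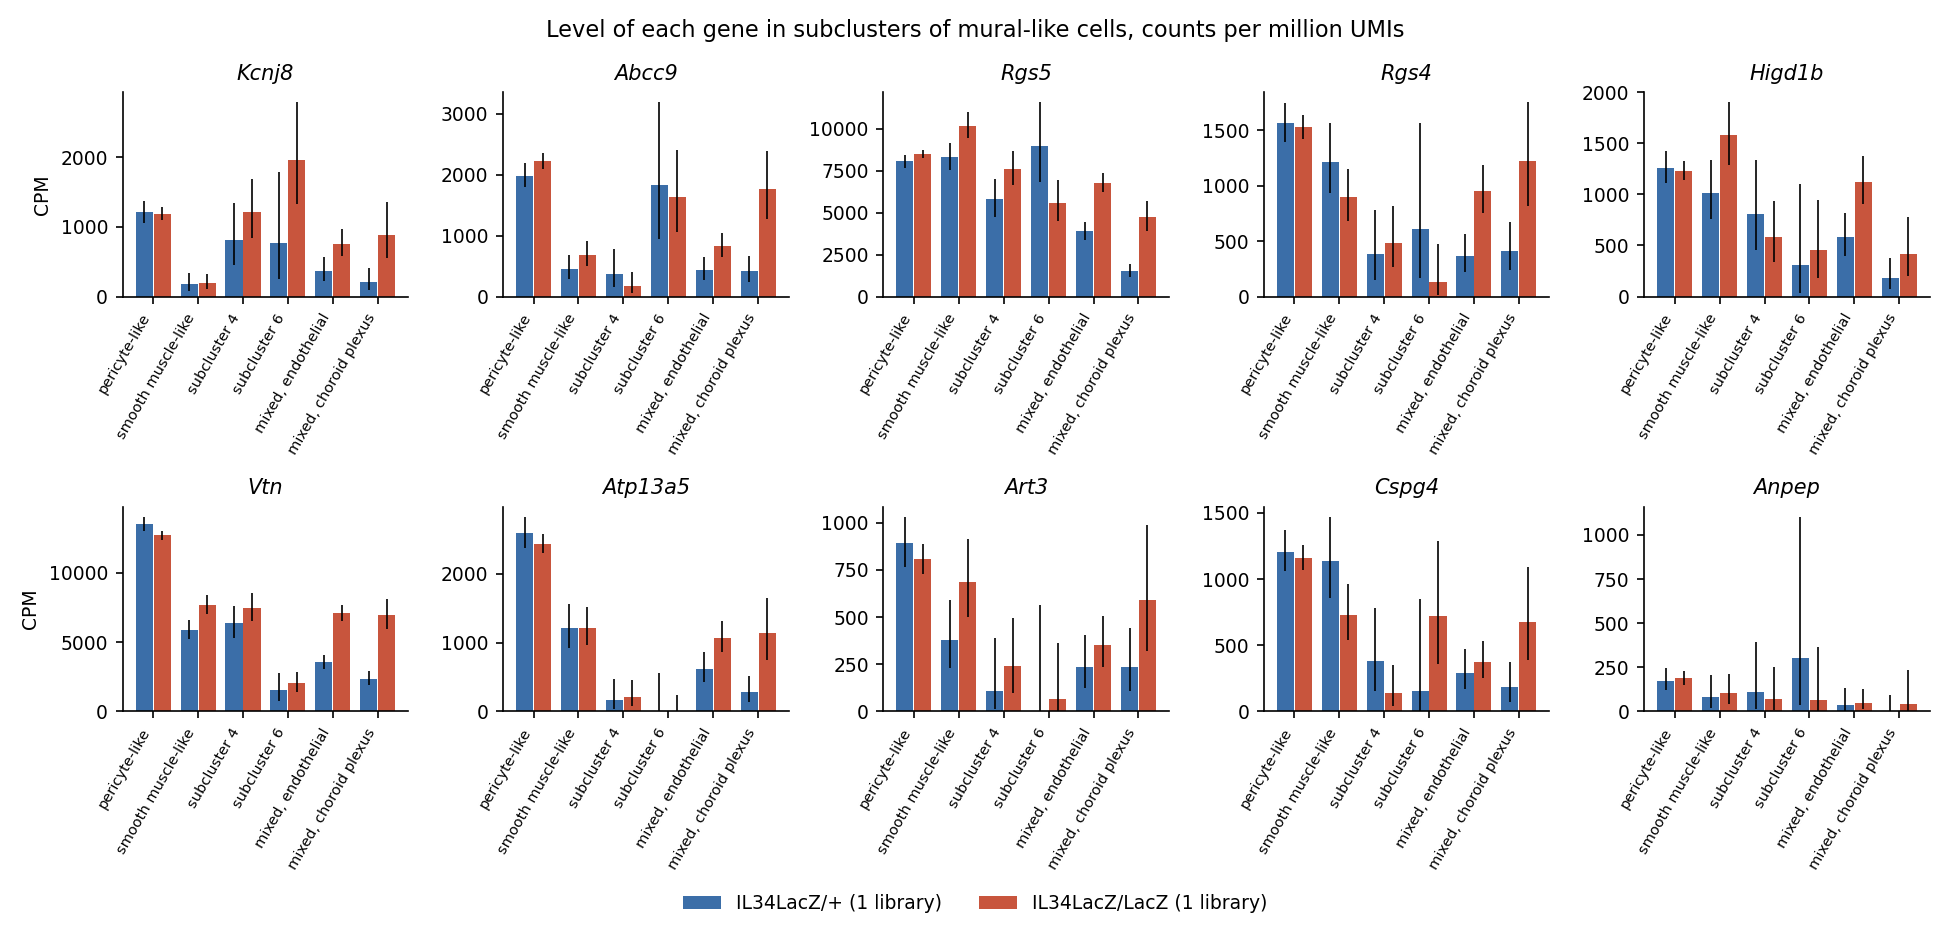
CPM of each gene in the subclusters of mural-like cells, 1 bar per library with its exact Poisson 95% interval. Kcnj8 and Abcc9 are low in smooth muscle-like cells while Rgs5 is not, and every bar of the mixed subclusters is lower in the IL34LacZ/+ than in the IL34LacZ/LacZ library, with Anpep resting on 0 to 4 UMIs.

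Because Kir6.1 and SUR2 form 1 channel, their transcripts were also compared cell by cell. Of mural-like cells with a Kcnj8 UMI, 89.2% (81.9 to 94.3) in the IL34LacZ/+ and 89.6% (85.1 to 93.1) in the IL34LacZ/LacZ library also held an Abcc9 UMI. Of those without a Kcnj8 UMI, 61.3% (48.1 to 73.4) and 73.0% (62.6 to 81.9) did. After thinning to 1000 UMIs per cell the shares were 79.0% and 82.8% with Kcnj8 against 54.3% and 66.0% without. Abcc9 was thus read more often beside Kcnj8 over all mural-like cells of both libraries.

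Within pericyte-like cells alone that difference was smaller. With and without a Kcnj8 UMI, an Abcc9 UMI was read in 89.0% (80.2 to 94.9) and 86.1% (70.5 to 95.3) of IL34LacZ/+ cells, and in 94.5% (90.4 to 97.2) and 82.5% (70.1 to 91.3) of IL34LacZ/LacZ cells. After thinning these were 80.9% and 82.0%, and 88.7% and 75.5%. A difference between both kinds of pericyte-like cell was not detectable at this depth in the IL34LacZ/+ library. In smooth muscle-like cells a Kcnj8 UMI was read in only 6 of 24 and 8 of 33 cells, and 5 and 7 of those held Abcc9.

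**Figure D4:**
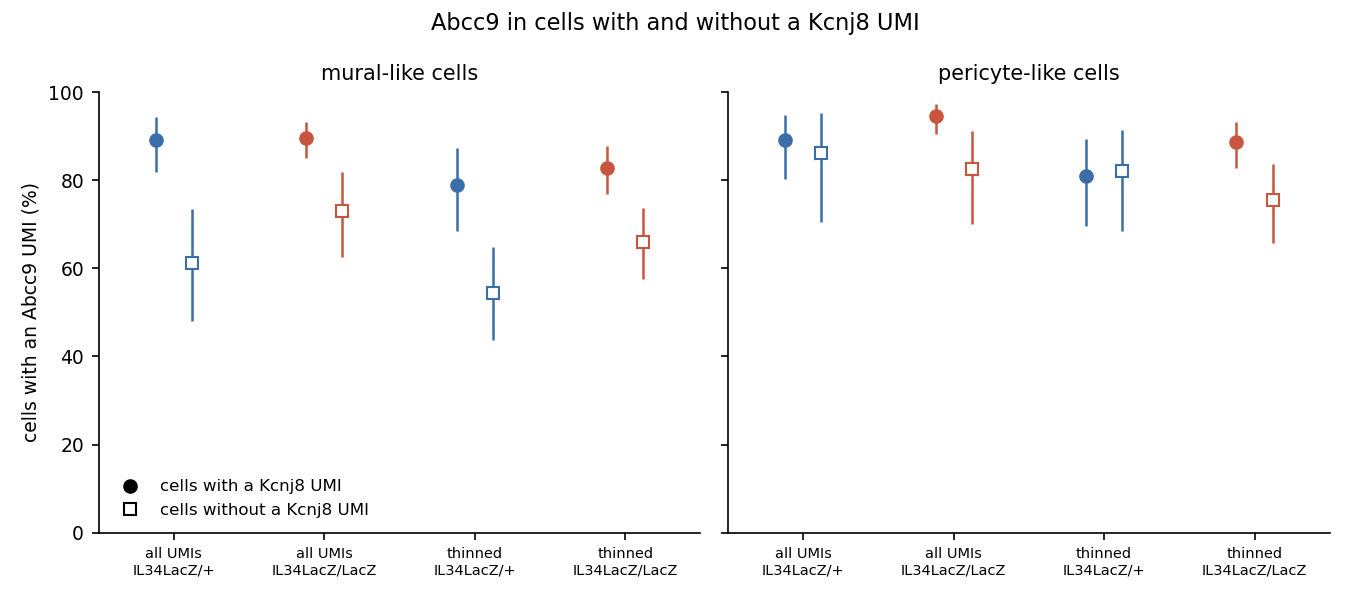
Share of cells with an Abcc9 UMI among cells with (filled circles) and without (open squares) a Kcnj8 UMI, by library, with all UMIs and after thinning to 1000 UMIs per cell, with exact Clopper-Pearson 95% intervals. The symbols lie apart over all mural-like cells (left) and closer together in pericyte-like cells (right).

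Between the libraries, each of the 10 genes was somewhat higher in the IL34LacZ/LacZ library over all mural-like cells, where 56.1% of 2334 genes with at least 100 UMIs had a ratio above 1. The ratio, IL34LacZ/LacZ over IL34LacZ/+, was 1.31 (1.14 to 1.497) for Kcnj8, 1.40 (1.26 to 1.56) for Abcc9, 1.23 (1.18 to 1.29) for Rgs5, 1.16 (1.03 to 1.30) for Rgs4, 1.21 (1.07 to 1.38) for Higd1b, 1.19 (1.14 to 1.24) for Vtn and 1.17 (1.06 to 1.28) for Atp13a5. The intervals of Art3 (1.17, 0.994 to 1.37), Cspg4 (1.08, 0.9502 to 1.24) and Anpep (1.25, 0.877 to 1.81) held 1. An interval wholly above 1 was thus found for 7 of the 10 genes, beside 9.9% of all genes tested. Here and below such shares were not matched for UMI number, on which the width of an interval depends. Vtn had 3416 and 8071 UMIs, while 100 over both libraries sufficed for a gene to be tested. None of the 10 genes was 1.5-fold apart, beside 8.7% of the genes in either direction, and the median log2 ratio of the members was 0.26, beside 0.048 over all genes. These sizes moved with the filters on cells: 8 members were 1.5-fold apart, with a median of 0.86, when only cells with at least 2000 UMIs were kept, and 6, with a median of 0.68, when up to 20% mitochondrial UMIs were allowed.

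The mixed subclusters also differed in share between the libraries. They made up 11.0% of mural-like cells but 25.4% of their UMIs in the IL34LacZ/+ library, and 8.26% and 14.5% in the IL34LacZ/LacZ library. Pericyte-like cells gave 54.2% and 70.3% of mural-like UMIs, and smooth muscle-like cells 13.6% and 9.17%. Whether these shares set the members' ratios was not tested. The 10 genes together were 0.850% and 1.92% of the UMIs of the mixed subclusters, and 3.25% and 3.20% of those of pericyte-like cells. The 8 choroid plexus markers summed to 28465 CPM and 9324 CPM over mural-like cells and the 12 endothelial markers to 2760 and 1916 CPM, with every marker of both lists detected in each library.

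Without the mixed subclusters the median log2 ratio of the members was 0.058, and 8 of 10 ratios were above 1, beside 51.5% of 1882 genes. Abcc9, at 1.22 (1.10 to 1.37), and Rgs5, at 1.07 (1.02 to 1.13), still had intervals above 1, beside 6.16% of all genes, whereas Kcnj8 was at 1.12 (0.973 to 1.30) and Vtn at 1.03 (0.983 to 1.07). In both pericyte-like subclusters together 3 of 10 ratios were above 1, beside 51.4% of 1421 genes, no interval was wholly above 1, beside 5.07%, and the ratios ran from 0.904 for Art3 to 1.12 for Abcc9. There Kcnj8 stood at 1207 CPM (1060 to 1370) in the IL34LacZ/+ and 1188 CPM in the IL34LacZ/LacZ library, a ratio of 0.984 (0.847 to 1.15), and Abcc9 at 1989 and 2231 CPM, a ratio of 1.12 (0.9999 to 1.26). Vtn, at 13548 and 12709 CPM, had the only interval wholly below 1, at 0.938 (0.897 to 0.981). Taken singly, subclusters 0 and 1 each had 5 of 9 measured ratios above 1, beside 51.8% of 581 and 51.2% of 535 genes, with median ratios of 1.02 and 1.003. Within pericyte-like cells the members' ratios thus lay on both sides of 1. Choroid plexus markers were also unequal there, at 8292 and 3976 CPM, while endothelial markers were at 737 and 834 CPM and fibroblast markers at 852 and 1301 CPM, and their part in the ratios was not tested.

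**Figure D5:**
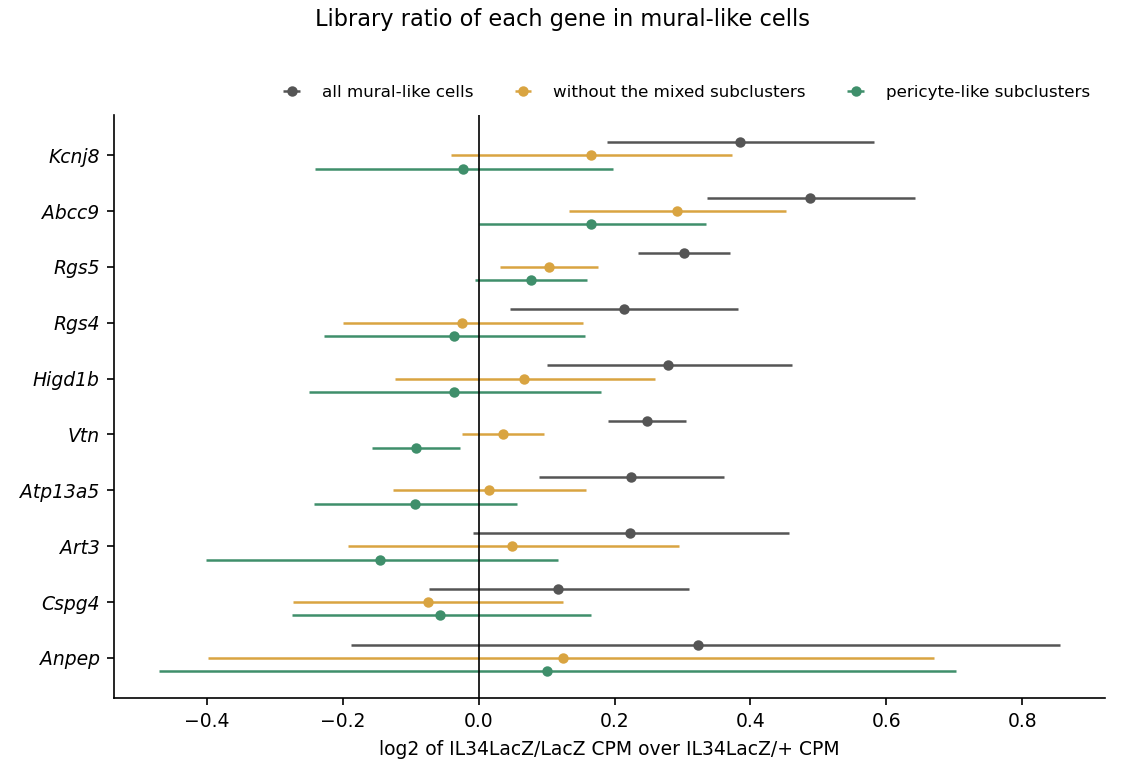
Log2 ratio of each gene, IL34LacZ/LacZ over IL34LacZ/+, with exact 95% intervals for counting error, over all mural-like cells, without the mixed subclusters and in pericyte-like subclusters. All 10 points are above 0 over all mural-like cells, and 3 of 10 are above 0 in pericyte-like subclusters.

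In smooth muscle-like cells 6 members had at least 100 UMIs over both libraries. Higd1b had a ratio of 1.55 (1.10 to 2.21), Vtn of 1.30 (1.13 to 1.51) and Rgs5 of 1.23 (1.08 to 1.39), while Cspg4 had 0.642 (0.429 to 0.957) and the intervals of Rgs4 and Atp13a5 held 1. At least a 1.5-fold difference was found for 2 of these 6, beside 16.0% of 100 genes. The Acta2 levels given above differ between the same cells. Mural-like cells were 2.11% and 3.52% of all cells kept, a share that the sort and loading can set, and the labels do not state how the sorted cells were proportioned at loading.

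The genes most alike to the members over the 13 classes of both libraries, 26 points of log2(CPM + 1) that share libraries and depth, were taken by Pearson correlation. Kcnj8 was most like Abcc9 (r = 0.97), and among the nearest genes outside the set were Cox4i2, Notch3 and Gucy1b1, which were also among those nearest to Abcc9, itself most like Atp13a5 (r = 0.98). Cox4i2 encodes a subunit of cytochrome c oxidase, Notch3 a Notch receptor of mural cells and Gucy1b1 a subunit of the nitric oxide receptor. Rgs5 was most like Higd1b (r = 0.95) and, outside the set, Tnfaip1, Cox4i2, Notch3, Car4 and Itga1. Vtn was most like Pdgfrb (r = 0.96), the receptor through which pericytes are recruited, followed by Pth1r, Ndufa4l2, Pde3a and Gm47171, and its likeness to Rgs5 was lower (r = 0.74). These are descriptions of levels over classes.

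Other genes of the pathways were counted with the same rule of at least 100 UMIs in mural-like cells. Of 20 other pericyte genes 19 were measured and 17 of them were highest in mural-like cells. Among the 579 genes with at least 100 UMIs in each library, 28.8% were highest there. Several of the 20, such as Pdgfrb and Notch3, were markers that named the mural-like class, so that count was partly set in advance. Of the 19 measured, 15 had a library ratio above 1, beside 56.1% of the 2334 genes, and the median ratio was 1.16. Pdgfrb stood at 1902 and 2310 CPM, a ratio of 1.21 (1.11 to 1.33), and Notch3 at 1088 and 1215 CPM, a ratio of 1.12 (0.991 to 1.26), while Nkx3-2 had no UMI. Of 15 smooth muscle contractile genes 10 were measured, 2 had a ratio above 1 and 5 were at least 1.5-fold lower in the IL34LacZ/LacZ library, beside 4.46% of the 2334 genes, with a median of 0.745. Acta2 was among these, at 765 and 149 CPM over all mural-like cells, a ratio of 0.194 (0.154 to 0.243).

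Of 15 other KATP subunits and vascular potassium channels only Kcnmb1, a subunit of the calcium-activated channel, was measured, at 94.98 and 102 CPM, and Abcc8 and Kcnn4 had no UMI in mural-like cells. Of 20 receptors, G protein and kinase genes that open the channel 8 were measured, with a median ratio of 1.05 and none 1.5-fold apart. Gucy1b1 stood at 749 and 895 CPM, a ratio of 1.19 (1.04 to 1.38), Gucy1a1 at 619 and 678 CPM and the adenosine receptor gene Adora2a at 144 and 166 CPM. Of 17 genes of receptors and G proteins whose signalling RGS proteins can limit, 9 were measured. Of these 9, 4 had a ratio above 1, beside 56.1% of the 2334 genes, and the median was 0.963. Among those 4, the endothelin receptor gene Ednra stood at 312 and 424 CPM, a ratio of 1.36 (1.09 to 1.70), and S1pr3 at 646 and 747 CPM, a ratio of 1.16 (0.992 to 1.35). Of 19 other genes with Rgs symbols only Rgs7bp was measured, at 119 and 101 CPM, with 4 others at 0. Rgs7bp encodes a binding protein of Rgs7 and not an RGS regulator, so no other RGS regulator of the list was measured. Of 9 genes of the integrins and uPAR system that bind vitronectin 3 were measured, Itgb1 at 738 and 870 CPM, Itgb5 at 201 and 241 CPM and Itgav at 187 and 215 CPM.

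Of 16 immediate-early and stress genes 12 were measured, 6 were at least 1.5-fold lower in the IL34LacZ/LacZ library, beside the same 4.46%, and the median ratio was 0.665, with Fos at 396 and 158 CPM. Markers of other cells over all mural-like cells summed to 749 and 1512 CPM for fibroblasts, 467 and 539 CPM for microglia and BAMs, and 573 and 567 CPM for astrocytes and the oligodendrocyte lineage, where Gpr17, Neu4, Lhfpl3 and C1ql1 had no UMI. Their part in the members' ratios was not tested.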

How the data were processed

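The authors deposited UMI counts per gene and barcode for 2 libraries; per the file headers they come from Cell Ranger 5.0.0, and per the submitters' processing notes from GRCm38.p6 (mm10). No source used here states how barcodes were chosen, and the smallest total was 500 UMIs. Cells needed at least 1000 UMIs and 500 genes, with at most 10% mitochondrial UMIs. Scrublet (expected rate 10%) marked 6.44% and 6.46% of barcodes as doublets, and these were left out. Clustering (scanpy 1.11.5, Python 3.11.15) used 2000 variable genes other than the members, 30 components, 20 neighbours and Leiden resolution 1, giving 29 clusters; subclusters were made at resolution 0.5. Clusters were named where a type's markers were enriched by 1 or more on the log2 scale on average, 3 of them 2-fold. A lead of 0.5 over the next type was also needed. In addition, no other type could have more markers among the 10 or the 50 genes of highest fold. These thresholds, and leaving the cluster with pituitary and bone genes unnamed, were chosen after the data were seen.

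UMIs were summed per class and library and given as CPM with exact Poisson intervals, ratios with exact conditional binomial intervals and shares with exact Clopper-Pearson intervals, all at 95%, for counting error only; the scripts were tested on simulated data. For 0 UMIs the limit is the level of 3. The 10 members and all lists were chosen with earlier results of these data known. Genes named are the members, for 4 members the 5 most alike genes, the 5 most mural-specific other genes, and list genes with at least 100 UMIs; some genes that this rule names are not reported here. Levels count tags at transcript ends, without scaling by gene length.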

Additional observations from a re-analysis of the deposited data

Results flagged for a closer look

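Outside mural-like cells, some members with at least 100 UMIs over both libraries were lower in the IL34LacZ/LacZ library, with an interval below 1, while their ratio over mural-like cells was above 1. The difference between these ratios was not tested, and the share of all genes with such an interval was not counted. Intervals above 1 also occurred outside mural-like cells. They were found for 2 of 2 measured members in BAM-like and in choroid plexus epithelial-like cells. In fibroblast-like cells 2 of 4 had one, in neuron-like 2 of 6 and in endothelial-like 1 of 5. In microglia-like and neutrophil-like cells it was 1 of 2, and in ependymal-like cells and unnamed cluster 3 it was 1 of 3. Of all genes tested in these classes, 5.2% to 17.3% had an interval above 1. By endothelial-like cluster, such intervals were found for 2 of 4 members in cluster 12 and 1 of 2 in clusters 0 and 17. Of all genes tested in clusters 12, 0 and 17, 5.49%, 7.49% and 8.35% had one. The Rgs5 level of cluster 12, given above, was higher in the IL34LacZ/LacZ library, unlike in the 2 endothelial-like clusters named next. Rgs5 had a ratio of 0.741 (0.575 to 0.954) in endothelial-like cluster 13, from 147 and 113 UMIs, and of 0.673 (0.551 to 0.819) in cluster 18, led by Plvap and Igfbp3, where a single cell gave 29.5% of the Rgs5 UMIs in each library. Rgs4 had a ratio of 0.711 (0.554 to 0.917) in ependymal-like cells, from 101 and 177 UMIs in 53 and 104 cells. Vtn had a ratio of 0.507 (0.415 to 0.619) in unnamed cluster 19, from 232 and 177 UMIs, of which 25.0% and 14.7% came from 1 cell. Within mural-like cells, intervals below 1 were also found for Vtn in pericyte-like cells and Cspg4 in smooth muscle-like cells, as given above, for Vtn (0.927, 0.869 to 0.989) and Atp13a5 (0.857, 0.740 to 0.994) in subcluster 1, and for Rgs5 in the 4 and 5 cells of subcluster 6 (0.623, 0.442 to 0.882).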

How the results depend on the processing

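The members' library ratios over mural-like cells were recomputed under 12 alternatives, 11 planned and 1 chosen after seeing the data (pericyte-like subclusters only). Of 120 values for single genes, 107 were above 0 on the log2 scale, and 67 lay within the gene's counting interval. No member was 1.5-fold apart under the settings reported, but 8 were with a minimum of 2000 UMIs per cell, 1 with at most 5% mitochondrial UMIs, 6 with at most 20% and 2 with the members kept for clustering. The median log2 ratio of 0.26 became 0.86 at 2000 UMIs, 0.68 at 20% mitochondrial UMIs, 0.45 with the members kept, 0.13 with equal weight per cell, 0.058 without the mixed subclusters and -0.037 in pericyte-like subclusters. The cause was not tested. The 13 values at or below 0 were, in pericyte-like subclusters, Kcnj8 (-0.023), Rgs4 (-0.037), Higd1b (-0.037), Vtn (-0.092), Atp13a5 (-0.094), Art3 (-0.145) and Cspg4 (-0.056), without the mixed subclusters Rgs4 (-0.024) and Cspg4 (-0.075), after thinning Higd1b (-0.043) and Cspg4 (-0.018), with equal weight per cell Cspg4 (-0.069), and at 5% mitochondrial UMIs Art3 (-0.328). The share of Kcnj8 cells with Abcc9 was 79.0% and 82.8% after thinning, and 94.5% in pericyte-like cells of the IL34LacZ/LacZ library. All 10 members stayed highest in mural-like cells under each alternative run. Leaving out a replicate was not possible with 1 library per genotype. No paired analysis was possible because each genotype has 1 library. Depth limits Anpep, with 45 UMIs in the IL34LacZ/+ library, and the small subclusters.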
